A study of Peromyscus polionotus with 11 samples.

Results

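The Myc network is a small set of transcription factors that control growth and proliferation, and it was followed here through 6 genes: Mycn, Myc, Mycbp, Max, Mxi1 and Mxd4. All probe sets that carry exactly 1 of these symbols in the platform annotation were taken, which gave 16 of the 22626 probe sets tested. The genes were chosen by measured values: probe sets of Mycn and of Mycbp were among the few that earlier results of these data called between short and long days in the bed nucleus of the stria terminalis. The values of that comparison therefore describe the choice and are given without p-values.

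The arrays measured RNA of brain micropunches from oldfield mice (Peromyscus polionotus), a North American species related to the deer mouse. There were 4 groups: bed nucleus in short days (2 arrays, sample numbers 4 and 5), bed nucleus in long days (3 arrays, numbers 1 to 3), medial preoptic area in short days (3 arrays, numbers 4 to 6) and medial preoptic area in long days (3 arrays, numbers 1 to 3). The labels give no age, sex, genotype, hours of light or pooling, and do not say whether numbers shared by the nuclei mark the same animal, so the p-values measure only the spread between these samples. The bed nucleus relays between amygdala and hypothalamus, and the preoptic area is a hypothalamic region of parental and sexual behaviour.

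Myc and Mycn encode closely related basic helix-loop-helix leucine zipper proteins. Each pairs with Max, and the pair binds E-box DNA and activates genes of ribosome production, metabolism and the cell cycle. Mxi1 and Mxd4 belong to the Mxd proteins, which also pair with Max and recruit Sin3 corepressors to the same sites, mostly in cells that leave the cycle. Mycbp, known in human cells as AMY-1, binds the amino-terminal part of Myc and also A-kinase anchoring proteins. In the brain Mycn is best known from neural progenitors, while Mxd genes are common in differentiated cells.

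The values are linear intensities per probe set, whole numbers after normalization between arrays, and every array had a median of 19. Because the probes were designed for the house mouse, sequence differences lower the signal of some of them by an unknown amount, so levels were compared between arrays and not between probe sets. Of the 16 member probe sets, 10 had a mean intensity above 19 and 6 did not. The bright ones belonged to 4 genes, Mycn, Mycbp, Mxi1 and Mxd4, whereas Myc and Max were represented by 1 dim probe set each. Of the 5 Mycbp probe sets, 4 carry the same accession in the annotation, yet their mean intensities ran between 12.3 and 195. The Mycn pair with a common accession spanned 13.8 to 67.5. A dim probe set therefore need not stand for a low transcript level.

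**Figure D1:**
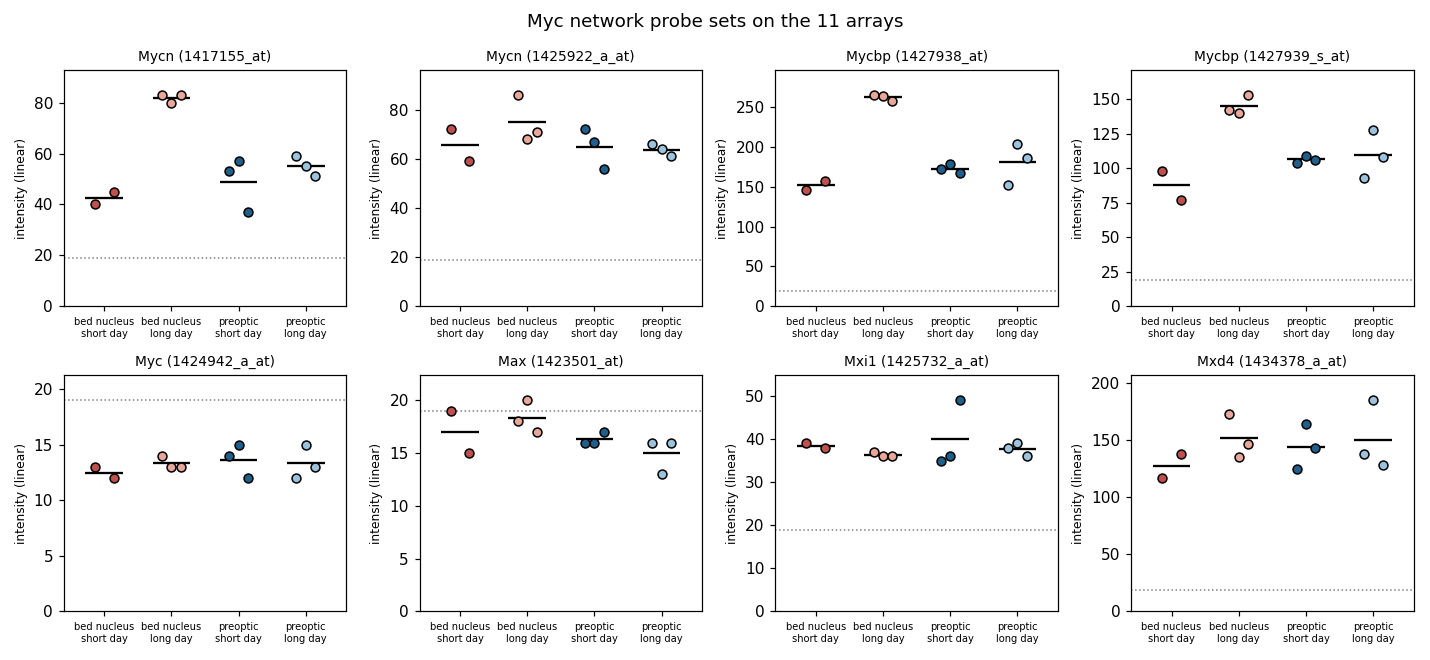
Intensity (linear scale) of 8 member probe sets on each of the 11 arrays, with points for arrays, bars for group means and a dotted line at the array median of 19. Mycn 1417155_at and both Mycbp probe sets are highest on the 3 long-day bed nucleus arrays, and Myc lies under 19 on all arrays.

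Among the activators, Mycn carried the widest spread. Probe set 1417155_at of Mycn read 40 and 45 in the short-day bed nucleus, against 83, 80 and 83 in the long-day bed nucleus. In the medial preoptic area it read 53, 57 and 37 in short days, against 59, 55 and 51 in long days. The long-day bed nucleus arrays stood above all others, and the short-day bed nucleus arrays lay inside the range of the short-day preoptic arrays. In order of level, the long-day bed nucleus (82.0 ± 1.73, SD, n = 3) came before the long-day preoptic area (55.0 ± 4.0, n = 3), the short-day preoptic area (49.0 ± 10.6, n = 3) and the short-day bed nucleus (42.5 ± 3.54, n = 2). The long-day and short-day preoptic groups overlapped, as did the short-day groups of the nuclei.

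The bed nucleus difference, which helped to choose the gene, was -0.95 ± 0.17 on the log2 scale (short minus long days, SE), a fold of 0.517. In bulk punches, fewer cells of a type and less RNA per cell cannot be told apart. In the medial preoptic area, whose day-length difference was not used in the choice but whose arrays entered the shared variance behind the bed nucleus calls, it was -0.19 ± 0.15 and did not pass (adjusted p = 1, limma). The lowest preoptic value, 37, belonged to short-day array 6, and without that array the difference was 0.00. Over all probe sets, the first principal component (23.2% of the variance) put that array at -31.2 and long-day bed nucleus arrays 1, 2 and 3 at 25.4, 19.3 and 7.57, with the other 7 arrays between -6.63 and 1.98. The 3 arrays with the highest Mycn 1417155_at and the array with the lowest thus lay toward the ends of this axis, whose part in the result was not tested.

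The other bright Mycn probe set, 1425922_a_at, did not follow this pattern. It read 72 and 59 in the short-day and 86, 68 and 71 in the long-day bed nucleus, so that these groups overlapped, with a log2 difference of -0.19 ± 0.15. The preoptic readings were 72, 67 and 56 in short days, against 66, 64 and 61 in long days (0.02 ± 0.14, adjusted p = 1, limma). The dim Mycn probe set 1425923_at read 12 and 15 in the short-day bed nucleus, against 13 on each long-day array. Its preoptic readings were 14, 15 and 19 in short days, against 13, 12 and 13 in long days, groups that did not overlap (0.33 ± 0.14, adjusted p = 1, limma). Without array 6, which read 19, the difference was 0.20, and with a pseudocount of 16 it was 0.16. A step of 1 intensity unit is a large part of such a difference at this level. The Mycn probe sets thus disagreed, and 1 of the 3 had bed nucleus groups that did not overlap.

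Myc itself was read by 1 probe set, 1424942_a_at, under the array median on all 11 arrays. It gave 13 and 12 in the short-day bed nucleus, against 14, 13 and 13 in the long-day bed nucleus (log2 difference -0.09 ± 0.15). Preoptic arrays gave 14, 15 and 12 in short days, against 12, 15 and 13 in long days (0.04 ± 0.13, adjusted p = 1, limma). The day-length groups overlapped in both nuclei. With readings of 12 to 15 on a single dim probe set, nothing is read about a change of Myc itself.

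Mycbp was the other gene behind the choice. Probe set 1427938_at of Mycbp read 146 and 157 in the short-day bed nucleus, against 265, 264 and 258 in the long-day bed nucleus. In the preoptic area it read 172, 178 and 167 in short days, against 152, 204 and 186 in long days. As with Mycn, the long-day bed nucleus stood above every other array. The log2 difference in the bed nucleus was -0.79 ± 0.14 (fold 0.577), and in the preoptic area -0.06 ± 0.13 (adjusted p = 1, limma).

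A further Mycbp probe set, 1427939_s_at, gave a similar picture, with 98 and 77 in the short-day bed nucleus, against 142, 140 and 153 in the long-day bed nucleus (log2 difference -0.74 ± 0.15). Its name ending marks a possible match to several transcripts, and it shares an accession with the first. Its preoptic values were 104, 109 and 106 in short days, against 93, 128 and 108 in long days (-0.03 ± 0.14, adjusted p = 1, limma). The preoptic groups overlapped, and the bed nucleus groups did not. The remaining 3 Mycbp probe sets were dim, between 9 and 16 on all arrays, and differed by -0.23, -0.16 and 0.21 in the bed nucleus.

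Max, the partner of Myc, Mycn and the Mxd proteins, had 1 probe set, 1423501_at. It read 19 and 15 in the short-day bed nucleus, against 18, 20 and 17 in the long-day bed nucleus (log2 difference -0.12 ± 0.15). That difference was -0.29 without short-day array 4 and 0.05 without short-day array 5, so its sign rested on 1 array. It read 16, 16 and 17 in the short-day preoptic area, against 16, 13 and 16 in the long-day preoptic area (0.13 ± 0.13, adjusted p = 1, limma). The day-length groups overlapped in both nuclei.

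Among the antagonists, no probe set had all long-day bed nucleus arrays above the other arrays, as Mycn 1417155_at did. Probe set 1425732_a_at of Mxi1 read 39 and 38 in the short-day bed nucleus, against 37, 36 and 36 in the long-day bed nucleus (log2 difference 0.08 ± 0.15). These groups lay close together but did not overlap. The preoptic values were 35, 36 and 49 in short days, against 38, 39 and 36 in long days (0.07 ± 0.13, adjusted p = 1, limma). The 49 was again short-day array 6, and without it the preoptic difference was -0.08. The other Mxi1 probe set, 1450376_at, read 22, 23 and 21 in the short-day preoptic area, against 25, 26 and 27 in the long-day preoptic area. These groups did not overlap, but the difference of -0.24 ± 0.13 did not pass (adjusted p = 1, limma). In the bed nucleus the same probe set read 26 and 22 in short days, against 19, 25 and 25 in long days, and the groups overlapped (0.07 ± 0.15).

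Mxd4 was covered by 4 probe sets, all above 19 on every array. The brightest, 1434378_a_at of Mxd4, read 117 and 138 in the short-day bed nucleus, against 173, 135 and 147 in the long-day bed nucleus (log2 difference -0.25 ± 0.17). In the preoptic area it read 125, 164 and 143 in short days, against 138, 185 and 128 in long days (-0.05 ± 0.16, adjusted p = 1, limma). Day-length groups overlapped for all 4 Mxd4 probe sets in both nuclei. Their bed nucleus differences lay between -0.26 and 0.02, and their preoptic differences between -0.18 and 0.04. The probe set 1422575_at of Mxd4 read 55 on short-day preoptic array 6 and 37 to 45 elsewhere, the same array on which Mxi1 reached 49.

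**Figure D2:**
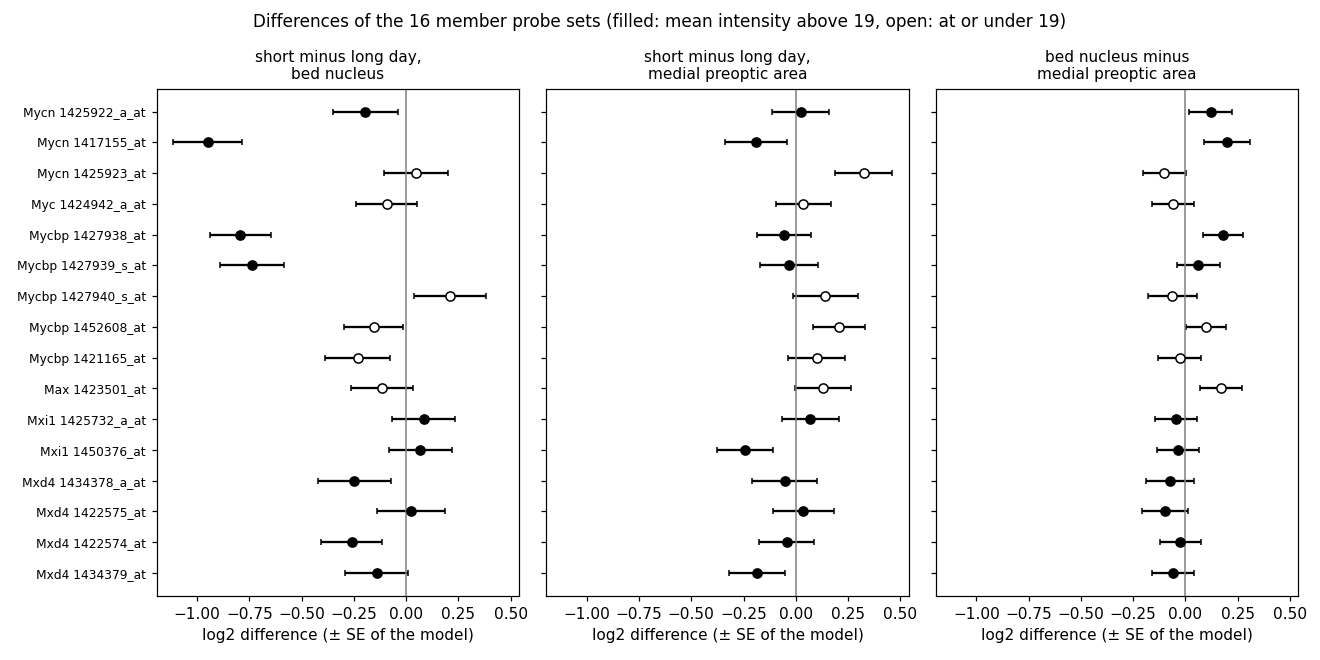
Log2 differences with the standard error of the model for the 16 member probe sets in 3 comparisons, filled points for a mean intensity above 19. In the left panel 1 Mycn and 2 Mycbp probe sets lie at -0.95, -0.79 and -0.74 and the other 13 between -0.26 and 0.21, while in the other panels all members lie between -0.24 and 0.33.

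Counted together, 2 of the 16 member probe sets were called in the bed nucleus at an adjusted p under 0.05, both lower in short days, where 0.0442% of all probe sets were called and 0.0265% were called lower. These calls led to the choice of the genes, so nothing is read from the count. It was 0 with quantile normalization, with the bed nucleus arrays alone, without any 1 of the bed nucleus or long-day preoptic arrays and without short-day preoptic array 4. Bed nucleus groups did not overlap for 5 members, against 23.7% of all probe sets. In the medial preoptic area 0 of the 16 were called by limma and 0.00% of all probe sets. Here 1 member had an unadjusted p under 0.05, the dim Mycn probe set, against 3.50% of all probe sets, and 2 members had groups that did not overlap, against 5.19% of all. The median difference of the members in the preoptic area was 0.03 (9 above and 7 below 0), and that of all probe sets was 0.00.

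An interaction term tested whether short days acted differently on the members in the 2 nuclei. It shares the bed nucleus arrays with the choice of the genes and is no independent support. The bed nucleus effect minus the preoptic effect was -0.76 ± 0.22 for Mycn 1417155_at, -0.73 ± 0.19 for Mycbp 1427938_at and -0.71 ± 0.21 for Mycbp 1427939_s_at. All 3 had an adjusted p of 0.450 (limma), and 0 members passed, as did 0.00% of all probe sets, while 3 members and 8.34% of all probe sets had an unadjusted p under 0.05. A different effect in the nuclei was thus not established for any member.

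Set against each other over both day lengths, the nuclei gave no member that passed. Mycn 1417155_at was at 0.20 ± 0.11 (bed nucleus minus preoptic area, adjusted p = 0.504, limma), Mycbp 1427938_at at 0.18 ± 0.10 (adjusted p = 0.477, limma) and Max at 0.17 ± 0.10 (adjusted p = 0.535, limma). The other 13 lay between -0.10 and 0.12. In this comparison 0 of the 16 members and 1.03% of all probe sets were called, and for 0 members and 1.47% of all probe sets the nuclei did not overlap.

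Within short days, Mycn 1417155_at was at -0.18 ± 0.17 in the bed nucleus relative to the preoptic area and Mycbp 1427938_at at -0.19 ± 0.14. Within long days they were at 0.58 ± 0.15 (adjusted p = 0.144, limma) and 0.55 ± 0.13 (adjusted p = 0.108, limma). Neither day length gave a called member, with 0.354% of all probe sets called in short days and 0.128% in long days. The long-day bed nucleus arrays took part in choosing the genes, so the long-day values are no separate support.

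The members were also compared with each other over the 11 arrays, as a description, since all points share the groups and the difference behind the choice. Mycn 1417155_at and Mycbp 1427938_at had a Pearson correlation of 0.87, which was 0.41 over the 8 arrays outside the long-day bed nucleus. The bright Mycbp probe sets correlated at 0.91 over all arrays and at 0.77 over those 8. The bright Mycn probe sets correlated at 0.64, at 0.37 over those 8 and at 0.52 without short-day preoptic array 6. Mxi1 1425732_a_at and Mxd4 1422575_at correlated at 0.94, and at 0.75 without short-day preoptic array 6. The Mxi1 probe sets correlated at -0.25, and at 0.21 without that array.

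The genes most like each member were taken as the 5 with the highest Pearson correlation over the 11 arrays, among probe sets brighter than the median. For Mycn 1417155_at these were Echs1, a mitochondrial enzyme of fatty acid oxidation (0.95), Banf1, a chromatin protein of the nuclear envelope (0.95), Sox4, a transcription factor of immature neurons (0.94), Lrrtm1, a synaptic adhesion protein (0.93), and Hmgb2, a chromatin protein of dividing cells (0.92). Sox4 read 26 and 25 in the short-day bed nucleus, against 39 on each of the 3 long-day arrays. Hmgb2 read 22 and 27, against 54, 45 and 44. Among the cell type markers below, Sox4 and Hmgb2 are represented by other probe sets.

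For Mycbp 1427938_at the closest were Nell2, a secreted neuronal glycoprotein (0.95), B9d1, a protein of the transition zone of cilia (0.93), Dynll1, a dynein light chain (0.93), Zfp296, a zinc finger protein (0.93), and Map3k2, a kinase of MAP kinase cascades (0.91). Nell2 read 168 and 172 in the short-day bed nucleus, against 249, 255 and 217 in the long-day bed nucleus. For the brightest probe sets of Mycn, Myc, Max, Mxi1 and Mxd4 the highest correlations were 0.95, 0.94, 0.93, 0.95 and 0.96, so values of this size also arose for members with little variation. The closest genes there were Mylk2, a muscle myosin light chain kinase, for Mycn 1425922_a_at, Ctnnbl1 for Myc, Entpd2, a nucleotide-hydrolysing membrane enzyme, for Max, Ywhaq, a 14-3-3 protein, for Mxi1 and Dpysl4, a protein of neurite growth, for Mxd4.

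**Figure D3:**
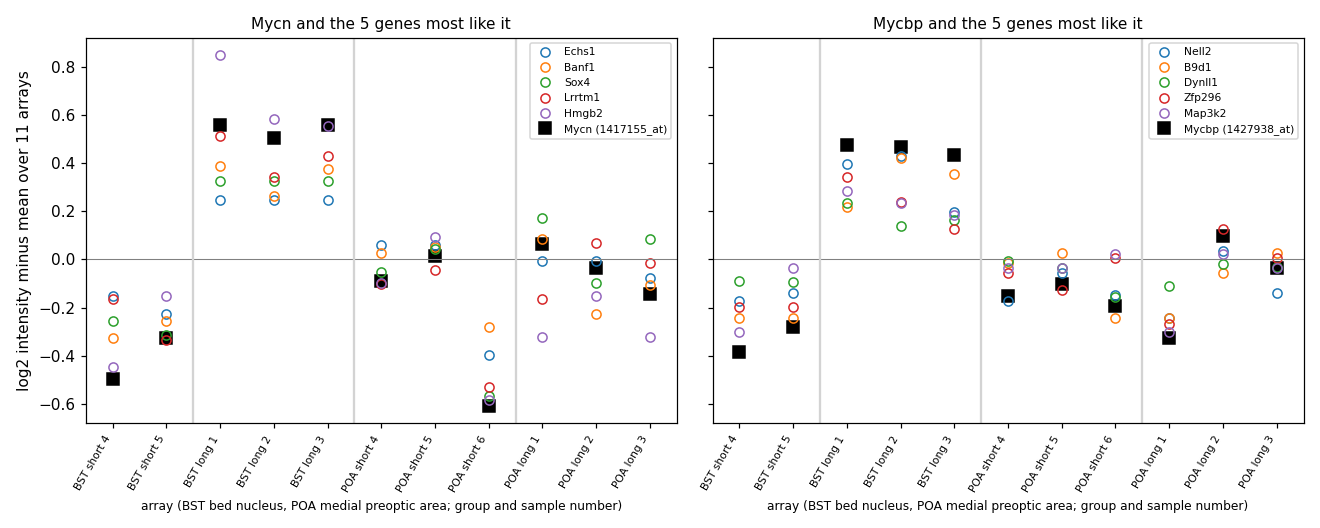
Log2 intensity minus its mean over the 11 arrays, for Mycn 1417155_at (left) and Mycbp 1427938_at (right) as squares and the 5 genes most correlated with each as circles, with arrays ordered by group. All lie above their mean on the 3 long-day bed nucleus arrays and under it on the short-day bed nucleus arrays 4 and 5, and Mycn and its 5 genes are also low on short-day preoptic array 6.

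Other genes of the pathway came from 4 lists, each gene represented by its brightest probe set. The list of further Max and Mlx partners held 9 genes, all measured. In the preoptic area 5 were higher and 4 lower in short days, with 0 called. Mlxipl, the glucose-sensing factor ChREBP, had the smallest p and read 13, 13 and 19 in short days, against 12, 10 and 11 in long days (0.43 ± 0.16, adjusted p = 1, limma). Without array 6, which read 19, the Mlxipl difference was 0.24. The next were Mnt, a Max-binding repressor (0.15 ± 0.14), and Mxd1, another Mxd repressor (-0.09 ± 0.13).

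In the bed nucleus 4 of these partners were higher and 5 lower, with 0 called. Mycl, the L-Myc gene, read 15 and 15 in short days, against 21, 19 and 18 in long days (-0.36 ± 0.15, adjusted p = 0.328, limma). Its groups did not overlap, but Mycl did not pass. Between the nuclei 0 passed as well. Mxd1 read 32 and 34 in the short-day and 37, 32 and 30 in the long-day bed nucleus, above all preoptic arrays (24 to 28), with a difference of 0.30 ± 0.09 (adjusted p = 0.159, limma). Mnt lay at -0.28 ± 0.10 (adjusted p = 0.239, limma) and Mycl at 0.21 ± 0.10 (adjusted p = 0.447, limma), which was 0.13 without long-day preoptic array 3.

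Of 27 cofactors and turnover factors 22 were measured. In the preoptic area 5 were higher, 16 lower and 0 called. Ep400, a chromatin remodeller that Myc recruits, read 37, 37 and 31 in short days, against 44, 40 and 43 in long days (-0.28 ± 0.13, adjusted p = 1, limma). Kat2a, a histone acetyltransferase, was at -0.28 ± 0.16 and Sin3b, the corepressor of Mxd proteins, at -0.19 ± 0.14. On array 6 Kat2a read 26, against 42 and 44 on the other short-day preoptic arrays, and without array 6 the differences of Kat2a and Sin3b were -0.03 and -0.09.

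In the bed nucleus 6 cofactors were higher and 16 lower, with a median of -0.15 beside -0.01 for all probe sets and 0 called. Ep400 here read 35 and 46 in short days, against 31, 29 and 30 in long days (0.42 ± 0.15, adjusted p = 0.238, limma), and its difference was 0.22 without short-day array 5. Between the nuclei 0 passed, and the smallest p-values belonged to Hdac1, a histone deacetylase (-0.34 ± 0.10, adjusted p = 0.128, limma), Ruvbl2, a helicase of remodelling complexes (-0.32 ± 0.13), and Zbtb17, the Myc partner Miz1 (-0.22 ± 0.10). Hdac1 read 24 and 24 in the short-day and 26, 23 and 27 in the long-day bed nucleus, under all preoptic arrays (28 to 38).

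Genes that Myc proteins are known to induce were measured in 35 of 39 cases. In the bed nucleus 10 were higher and 25 lower in short days, with a median of -0.12 and 0 called, while 9 had an unadjusted p under 0.05, beside 12.7% of all probe sets. Their differences had both signs. Below 0 were Ranbp1, a cofactor of nuclear transport, with 60 and 56 in short days, against 89, 82 and 69 in long days (-0.46 ± 0.15, adjusted p = 0.217, limma), and the nucleolar Nop58 (-0.41), Nolc1 (-0.38) and Nop56 (-0.32) and the DNA repair enzyme Apex1 (-0.40). Above 0 were Ccnd2, cyclin D2, with 211 and 242 in short days, against 182, 176 and 169 in long days (0.36 ± 0.14, adjusted p = 0.285, limma), Odc1, the first enzyme of polyamine synthesis (0.34), Shmt2, a mitochondrial enzyme of one-carbon metabolism (0.41), and Rrs1, a ribosome assembly factor (0.42). Shmt2 read 39 and 67 in short days, against 45, 35 and 36 in long days, so its groups overlapped and its difference was 0.02 without short-day array 5. The Nop56 difference was -0.21 without short-day array 4. None of these passed over all probe sets, and the 9 were singled out after their values were seen.

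Among preoptic samples 19 induced targets were higher and 16 lower, with 0 called and a median of 0.05. The smallest p-values belonged to Cdk4, a cyclin-dependent kinase (-0.34 ± 0.14), Apex1 (-0.20 ± 0.14) and Pa2g4, a growth-linked RNA-binding protein (-0.19 ± 0.16), each with an adjusted p of 1 (limma). The Cdk4 difference was -0.22 without long-day array 3, and that of Apex1 was -0.05 without short-day array 6. Between the nuclei 17 were higher, 18 lower and 0 called. Fbl, the nucleolar methyltransferase fibrillarin, was at 0.28 ± 0.10 (adjusted p = 0.221, limma), Ccnd2 at 0.25 ± 0.10 (adjusted p = 0.274, limma) and Nme1, a nucleoside diphosphate kinase, at -0.29 ± 0.12 (adjusted p = 0.326, limma).

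Genes that Myc proteins are known to repress were all measured, 13 of 13. In the bed nucleus 7 were higher and 6 lower in short days, with 0 called and 4 under an unadjusted p of 0.05, beside 12.7% of all probe sets. These were Cdkn1b, Gadd45a (-0.45), Cdkn2c, the inhibitor p18 (0.35), and Klf6, a zinc finger factor (-0.33), the last 2 named after their values were seen. Leaving out long-day array 1 gave -0.24 for Gadd45a, and leaving out short-day array 5 gave -0.26. Cdkn1b, the cell cycle inhibitor p27, read 64 and 48 in short days, against 91, 103 and 67 in long days (-0.63 ± 0.18, adjusted p = 0.153, limma). All 3 long-day bed nucleus arrays lay above the preoptic arrays, which read 50 to 61 in short and 46 to 54 in long days. In short days the nuclei overlapped for Cdkn1b. In the preoptic area 6 repressed targets were higher and 7 lower, with 0 called, and the smallest p-values were those of Gadd45b (0.24 ± 0.16), a stress-response gene, Sat1 (0.16 ± 0.12), an enzyme of polyamine breakdown, and Cdkn2b (-0.14 ± 0.13), the inhibitor p15. Without short-day array 6 that of Gadd45b was 0.07, and without long-day array 3 it was 0.14. Between the nuclei 7 were higher, 6 lower and 0 called, with Cdkn1b at 0.40 ± 0.12 (adjusted p = 0.137, limma), Gas1, a growth arrest gene, at 0.34 ± 0.11 (adjusted p = 0.174, limma; 0.21 without short-day bed nucleus array 4) and Gadd45a, a relative of Gadd45b, at -0.29 ± 0.13 (adjusted p = 0.376, limma).

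**Figure D4:**
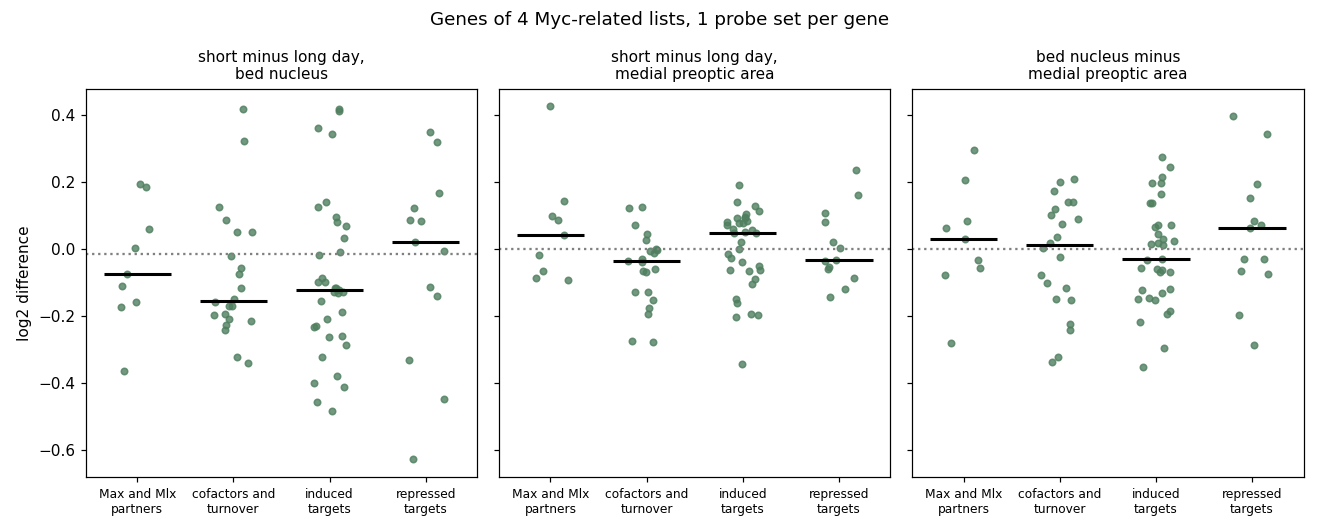
Log2 differences of the genes of 4 Myc-related lists in 3 comparisons, 1 point per gene, with bars at list medians and a dotted line at the median of all probe sets. In the bed nucleus the medians of cofactors (-0.15) and induced targets (-0.12) lie under that of all probe sets (-0.01), and 0 genes of any list passed in any panel.

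Several cell type markers went with Mycn and Mycbp in the bed nucleus, and their part in the result was not tested. Of 21 measured markers of neural progenitors and young neurons, 19 were lower in short days and 2 higher (median -0.18, all probe sets -0.01), with 1 called, Cd24a, and 17 of the 21 were brighter than the median probe set. Their summed intensity was 2680 to 2949 in the short-day and 3514 to 4360 in the long-day bed nucleus, against 3328 to 3793 in the short-day and 3360 to 3603 in the long-day preoptic area. Cd24a alone read 184 to 201 in the short-day and 474 to 857 in the long-day bed nucleus, and without it the bed nucleus sums overlapped (2479 to 2765 in short days, against 2701 to 3886 in long days). Cd24a was lower in short days in the preoptic area as well, with 128 to 210, against 259 to 509 in long days (-1.36, not called). Its difference was thus not particular to the bed nucleus. In the bed nucleus Sox11 (-0.68), Sox4 (-0.66), Dlx2 (-0.66), Cdk1 (-0.62) and Hmgb2 (-0.42) were lower in short days but not called. For Sox4 and Hmgb2 these values come from other probe sets than those found most like Mycn. The probe sets most like Mycn gave -0.61 for Sox4 and -0.96 for Hmgb2 in the bed nucleus. The size of the Hmgb2 difference thus depended on the probe set. Dcx (-0.01), Pcna (-0.02), Top2a (-0.06) and Tyms (-0.07), also markers of young neurons and dividing cells, lay near 0 there. The 2 higher ones were Mki67 (0.25) and Gsx2 (0.08). Mki67, Gsx2 and Tyms were dim, with mean intensities of 10.6, 16.1 and 13.1, so their differences rest on few intensity units. Of 9 markers of ependyma and choroid plexus 7 were lower, with sums of 203 on each short-day array, against 229 to 256 in long days. General neuronal markers were lower in 9 of 12 cases (3354 to 3423, against 3680 to 3933) and vessel markers in 8 of 10 (230 to 285, against 294 to 321). Much of the vessel difference lay in Pdgfrb, with means of 61 in short and 86.3 in long days, and Tagln, with 35 and 51. The 2 vessel markers not lower were Pecam1, with 23.5 and 19 and groups that did not overlap, and Flt1 (0.00). Astrocyte (3 higher, 7 lower), oligodendrocyte (6 higher, 4 lower) and microglial markers (5 higher, 5 lower) gave sums that overlapped between day lengths. Hypothalamic markers were lower in 10 of 15 cases, with sums of 3037 to 3148 in short days, against 3262 to 3599 in long days. Ndn made up much of these sums, with means of 1911 in short and 2140 in long days and groups that overlapped. Groups did not overlap for Lhx1, Esr1, Sim1 and Nr5a1, higher in short days, and for Oxt and Nnat, lower. Esr1 and Sim1 were dim, with mean intensities of 11.8 and 18.9. In the neuronal sums Gap43 had means of 828.5 in short and 1058 in long days, and Snap25 835.5 and 767. Bed nucleus groups did not overlap for 23.7% of all probe sets. Striatal markers overlapped there (5 higher, 4 lower), but in the preoptic area all 9 were lower in short days (median -0.32, 0 called). Between the nuclei, 8 of 9 striatal markers were higher in the bed nucleus than in the preoptic area. Of these, 5 were called (Foxp1, Rasd2, Ppp1r1b, Pde10a and Rgs9), beside 1.03% of all probe sets. Of 15 hypothalamic markers 11 were lower, with Gal, Lhx1, Lhx8, Ndn and Nnat called lower and Otp called higher. These markers were named after their values were seen. The lists were chosen with earlier results known, so the counts are no check of the punches.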

How the data were processed

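Per the labels, total RNA was labelled with biotin, and its hybridisation gave values for 11 arrays with Affymetrix probe set names. The deposited values are intensities on a linear scale, made with RMA version 3.4 per the submitters' processing notes. For further steps, nothing is given in the sources used here, and no detection call was used. The members and gene lists were chosen with earlier results of these data known. The table held 22690 probe sets, of which 64 controls were left out. Of 22626 tested, 20380 carry 1 gene symbol, 691 several and 1555 none, and only those with 1 were named. Differences were computed on the log2 of the deposited intensities, with no pseudocount, as a model with 4 group means over all 11 arrays (lmFit and eBayes, limma 3.58.1, R 4.3.3; 7 residual and 12.9 prior degrees of freedom). Tests were two-sided, with Benjamini-Hochberg adjustment over all probe sets and a threshold of 0.05. The procedure was tested on simulated arrays. Named were all member probe sets and, for each of the 4 Myc lists, genes that passed and the 3 with the smallest p in the preoptic and the nucleus comparison; the 9 induced targets with an unadjusted p under 0.05 in the bed nucleus were named after their values were seen. The number of arrays limits the precision. Alternatives changed the normalization, centring, filter, pseudocount, prior, array weights, probe sets per gene, arrays used, rounding and the block on sample number.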

Additional observations from a re-analysis of the deposited data

Results flagged for a closer look

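Ep400, a chromatin remodeller that Myc recruits, drew attention because its day-length groups separated in opposite directions: each short-day array lay above each long-day array in the bed nucleus and below each in the medial preoptic area. Groups did not overlap for 23.7% of all probe sets in the bed nucleus and for 5.19% in the preoptic area. The short-day readings of Ep400 were 35 and 46 in the bed nucleus, and 37, 37 and 31 in the preoptic area, the last on array 6. The bed nucleus effect minus the preoptic effect was 0.70 ± 0.20 on the log2 scale and did not pass (adjusted p = 0.450, limma).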

How the results depend on the processing

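In the medial preoptic area, between the nuclei and for the difference of the day-length effects, 0 member probe sets passed under all alternatives run (21, 20 and 20). Centring the arrays on their median, counted among these, could change nothing, because every array already had a median of 19. The bed nucleus count of 2 was unstable: it was 0 with quantile normalization and with the bed nucleus arrays alone, and 1 with a pseudocount of 16, with array weights, with 1 probe set per gene (which drops Mycn 1417155_at) and with the rounding undone. With each array left out in turn it ran between 0 and 2, being 0 without any 1 of the bed nucleus arrays, the long-day preoptic arrays or short-day preoptic array 4, 1 without short-day preoptic array 5 and 2 without array 6. The differences of Mycn 1417155_at (-1.04 to -0.75) and Mycbp 1427938_at (-0.85 to -0.64) kept their sign in all alternatives. These probe sets were chosen by this comparison and their groups did not overlap. Leaving out 1 array could thus not change the sign, and nothing is read from it. The pathway lists had 0 calls throughout, except 1 gene between the nuclei without long-day bed nucleus array 3, Cdkn1b (log2 difference 0.49, limma adjusted p 0.0492), named after its values were seen. Same-numbered arrays of the nuclei had correlations of their deviations between -0.03 and 0.07, so the numbers were not treated as pairs. A random replicate block on the sample number (correlation 0.01) left 2 called members in the bed nucleus, and a fixed replicate block left 0 between the nuclei. The cause of the lost calls was not tested. At means at or under 19, as for Myc, Max and the dim Mycn and Mycbp probe sets, differences rest on few intensity units. The list differences without 1 array, the correlations over fewer arrays and the marker sum without Cd24a were chosen after seeing the data.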
